A study of Saccharomyces cerevisiae with 4 samples.

Results

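The transcriptome of zinc-replete yeast cells that overexpress Zap1TC, a constitutive allele of the zinc-responsive activator Zap1, was compared with that of cells carrying the empty vector. The comparison rests on 2 of the 4 arrays of the series, those labelled as the Zap1TC allele against vector, and on the 5780 genes read on both of them. Both cultures of a pair were the laboratory strain DY1457, a MATα haploid that carries ade6, can1, his3, leu2, trp1 and ura3 mutations and keeps its chromosomal ZAP1. The test culture expressed Zap1TC from pYef2, a plasmid with the GAL1 promoter, which galactose switches on, and the reference culture held pYef2 alone. Both grew in zinc-replete SD medium (2% galactose, with ZnCl2 added to 1 μM) for 20 to 24 h, to an OD600 near 0.8. On both arrays Cy5 marked the mRNA of the Zap1TC culture and Cy3 that of the vector culture, so dye and allele cannot be told apart. Each array came from an independent pair of cultures. The 2 other arrays compared the same strain in low zinc medium (LZM) with 3 μM zinc over LZM with 3000 μM zinc after 14 to 16 h (severe zinc limitation). Their spread between replicates is pooled into the test behind every adjusted p of the Zap1TC response. Otherwise they are used below only to show where the Zap1TC response differed. The Zap1 allele, medium, carbon source and growth time all differ between these experiments and cannot be told apart in that difference.

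Zap1 binds zinc-responsive elements in promoters and turns on genes for zinc uptake when cells run short of zinc. In zinc-replete cells its activation domains are largely silent. The mutations of Zap1TC make those domains respond poorly to zinc, so the allele is active when zinc is plentiful. Most work on the regulon concerns genes that rise. Zap1 is also known to lower some genes, among them ADH1 and ADH3, where it drives intergenic transcripts that interfere with the promoter. The genes for ribosomal proteins and for ribosome assembly, which hold many of the falls described here, are among the most highly expressed in yeast and are known to be switched together with growth.

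ZAP1 itself was first examined as a test of the labels. Its log2 ratio of Zap1TC over vector was 6.84 on array 1 and 6.47 on array 2, a mean of 6.65 ± 0.26 (SD, n = 2), and both arrays therefore match their labels. The spots do not separate the plasmid allele from the chromosomal gene. The strain's mating type was also visible in the vector channel, where MF(ALPHA)1, which encodes the alpha-factor pheromone, lay 105-fold and 95.2-fold above the local background, while the 6 a-specific genes read lay between 1.17-fold and 1.73-fold. Of the genes of galactose use, which both cultures induce, GAL1 had a log2 ratio of 0.50, GAL10 of 0.41 and GAL7 of −0.42, and 1 of 9, GCY1 at −0.70, passed the size rule given next.

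A gene was called risen or fallen where its adjusted p from limma was under 0.05, its mean change was at least 1.5-fold, and each array showed at least 1.4-fold in the same direction. By this rule 405 of 5780 genes rose (7.01%) and 308 fell (5.33%). limma alone called 1692 higher (29.3%) and 1693 lower (29.3%). The rises reached further than the falls: 139 genes rose and 68 fell by over 2-fold, and 22 rose and 1 fell by over 4-fold. Array 1 and array 2 correlated with a Pearson's r of 0.944 over the 5780 genes, which are not independent replicates, and a gene's 2 ratios differed by a median of 0.0976. The study's target tables hold 68 of the risen genes. All 68 targets rose, but the study picked them in part from these arrays, and their count does not bear on direction independently. A further table holds 13 earlier targets that the study set apart because they missed its rule on these arrays. Of the 10 read on both, 0 rose and 0 fell by the rule used here, and limma alone called 5 higher, with COS4 at 0.48 and 0.70, COS8 at 0.53 and 0.57 and PEP4, vacuolar proteinase A, at 0.28 and 0.30. The other 337 risen genes and all fallen genes lie outside these tables.

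**Figure D1:**
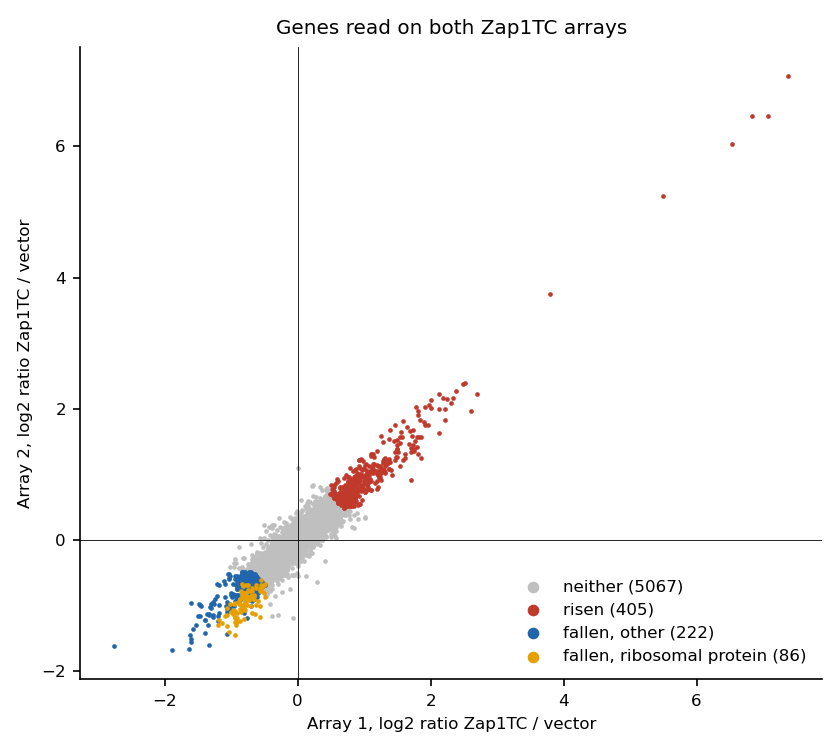
Log2 ratio of Zap1TC over vector on array 1 (x axis) against array 2 (y axis), 1 point per gene read on both arrays. The 405 risen genes reach a log2 ratio of 7.38 on array 1, while the 308 fallen genes, 86 of them ribosomal protein genes, go no lower than −2.76.

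The largest falls did not form a single pathway. INA1 (YLR413W) had log2 ratios of −2.76 and −1.63, the lowest mean of all genes (−2.19 ± 0.80, SD, n = 2; 4.57-fold; adjusted p = 5.45e-06 from limma). The arrays agreed on its direction but not on its size. MET2, the homoserine acetyltransferase of methionine synthesis, read −1.89 and −1.69, a 3.45-fold fall, and OAC1, the mitochondrial oxaloacetate and sulfate carrier, read −1.64 and −1.67, a 3.15-fold fall. YFL035C-B, a small open reading frame of the array's design, fell 3-fold (−1.60 and −1.56). MF(ALPHA)2, the minor alpha-factor gene, read −1.61 and −1.51, and ADH3, the mitochondrial alcohol dehydrogenase, read −1.62 and −1.45. LIA1, the deoxyhypusine hydroxylase that modifies the translation factor eIF5A, read −1.58 and −1.37. Apart from INA1, each of these genes had arrays within 0.21 of each other on the log2 scale.

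Next in order stood GLN1, glutamine synthetase, with log2 ratios of −1.33 and −1.61, then HOR7, a small protein induced by hyperosmotic stress, with −1.53 and −1.31. ARO10, the phenylpyruvate decarboxylase of the Ehrlich pathway, read −1.40 and −1.43. NSR1, yeast nucleolin, read −1.50 and −1.17, and YGR160W, an open reading frame that overlaps it, read −1.49 and −0.99, so their signals may not be separate. MET14, adenylylsulfate kinase, read −1.35 and −1.30. YML018C, a vacuolar membrane protein of unknown function, fell 2.5-fold, RFU1, an inhibitor of the ubiquitin hydrolase Doa4, fell 2.49-fold, and RGS2, a negative regulator of glucose-induced cAMP signalling, fell 2.48-fold. Both arrays put each of these genes below 0.

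The remaining genes among the 30 largest falls lay between 2.3-fold and 2.45-fold. ADH2 fell 2.45-fold, with arrays further apart than most (−1.61 and −0.97), and ADH1, the main fermentative alcohol dehydrogenase, fell 2.36-fold (−1.33 and −1.15). ADH1 and ADH2 are near-identical in sequence and can share signal. ASN1 (asparagine synthetase, 2.38-fold), MET16 (phosphoadenylylsulfate reductase, 2.35-fold) and HOM3 (aspartate kinase, 2.33-fold) act in amino acid and sulfur metabolism. UTP15, of the small-subunit processome, and RRN7, of the core factor of RNA polymerase I, each fell 2.35-fold. BDH1, butanediol dehydrogenase, also fell 2.35-fold, and YOX1, a homeodomain repressor of genes of the M to G1 transition, fell 2.32-fold. MF(ALPHA)1 fell 2.38-fold, and RPS9B, RPS18B, RPS0A and RPS23A, proteins of the small ribosomal subunit, fell 2.38-fold, 2.33-fold, 2.32-fold and 2.3-fold. The adjusted p from limma for these 30 genes was highest for ADH2, at 1.64e-05. All 50 of the 20 largest rises and 30 largest falls kept their call under all 13 refitted alternatives. Several of these change only the error estimate or the genes tested, not the Zap1TC ratios.

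**Figure D2:**
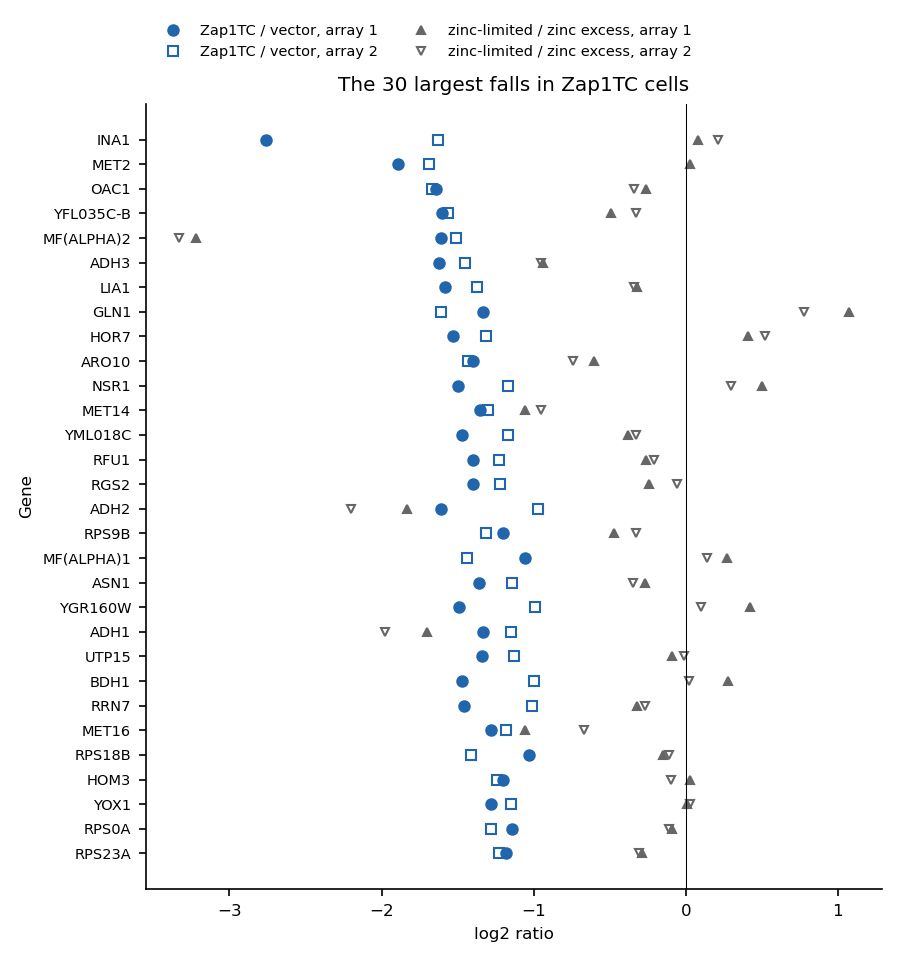
Log2 ratios of the 30 genes with the largest falls in Zap1TC cells (y axis, genes; x axis, log2 ratio), with circles and squares for the 2 Zap1TC arrays and triangles for the 2 arrays of severe zinc limitation where the gene was read. All Zap1TC points lie at or below −0.97, while the triangles lie on both sides of 0, from −3.33 for MF(ALPHA)2 to 1.07 for GLN1.

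Ribosomal protein genes made up 86 of the 308 falls (27.9%). Of 128 cytosolic ribosomal protein genes read on both arrays, 86 fell (67.2%, against 5.33% of all genes), 0 rose, and 118 lay below 0 on both arrays. limma alone called 117 lower and 2 higher. Their median log2 ratio was −0.68 on array 1 and −0.85 on array 2, against 0.00 for all genes. Both subunits were represented, with 34 of 54 genes of the small subunit and 52 of 74 of the large subunit and its stalk. RPL27B read −1.06 and −1.32, and RPL16B −1.09 and −1.17. In these bulk cultures fewer cells with an mRNA and less mRNA per cell cannot be told apart. The falls were moderate in each gene, none past 2.38-fold, and shared by most members.

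Many ribosomal proteins are encoded by a pair of genes with close sequences, whose signals the spots may share. Of 51 such pairs read, both copies fell in 32, 1 copy in 9 and neither in 10, and the copies differed by a median of 0.19 on the log2 scale. A few genes stood apart from the rest. RPL4A and RPL4B, the copies that encode protein L4, read 0.24 and 0.26 and 0.04 and 0.26 on the 2 arrays, with adjusted p of 0.00483 and 0.0932 from limma. RPL39 read 0.50 and 0.08, RPL43B 0.08 and 0.20, and RPP0, the stalk protein, −0.02 and 0.08. Under the authors' deposited values RPL4A and RPL4B read 0.02 and −0.09, so no direction is given for them.

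Ribosomal protein genes are bright on the array, and the 578 brightest of all genes held 105 of them. Of the 473 others among these, 36 fell (7.61%), and their median log2 ratio was 0.16. Of the 578 brightest genes 109 rose (18.9%). Loess centres the ratios at each brightness, so the values of the other bright genes are not independent of those of the ribosomal protein genes. How far normalization at the bright end sets these values was not tested beyond the alternatives. With loess within print-tip blocks 69 ribosomal protein genes fell, with the deposited values 100, and without array 1 or array 2 101 and 76.

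In severe zinc limitation the same 128 genes had a median log2 ratio of −0.10. The difference between the experiments passed limma's test as lower in Zap1TC cells for 108 of them and as higher for 1, against 26.5% lower and 21.6% higher among all 4992 genes read on all 4 arrays. RPS0A, which encodes a protein at the surface of the small subunit, differed by −1.11 (adjusted p = 1.88e-05) and RPL15B by −1.23 (adjusted p = 7.77e-06 from limma for each difference). RPS15 was an exception, with −0.81 in Zap1TC cells and −0.84 in zinc limitation.

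**Figure D3:**
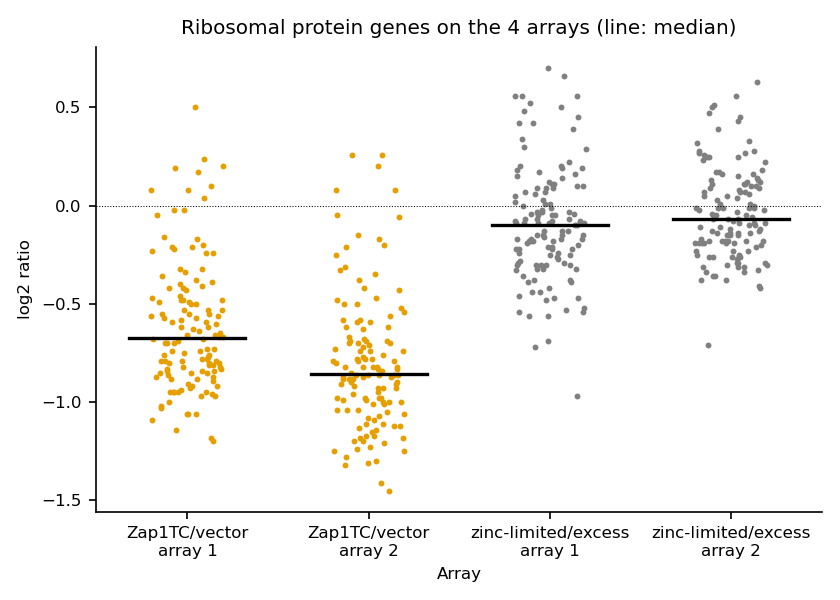
Log2 ratios (y axis) of the 128 ribosomal protein genes on each of the 4 arrays (x axis), with a line at each array's median. The medians on the Zap1TC arrays are −0.68 and −0.85, and the points of the zinc limitation arrays are centred near −0.10.

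With the main processing, genes that build ribosomes had smaller falls than the genes of the ribosome itself. Of 134 nucleolar and assembly factors, 21 fell (15.7%, against 5.33% of all genes) and 0 rose, with a median of −0.36, and 113 lay below 0 on both arrays. After NSR1 and UTP15 came RCL1, a processing factor of the small subunit, with −1.21 and −0.86. The helicase HAS1 (−0.98 and −0.67), MRT4, which assembles the stalk (−0.89 and −0.74), and NOP56, of the box C/D snoRNPs (−0.70 and −0.89), had means of −0.82, −0.82 and −0.80. This count depended on the array: 13 genes fell on array 2 alone and 40 on array 1 alone. Their median was −0.42 on array 1 and −0.29 on array 2. Ribosomal protein genes went the other way, with the lower median on array 2. With plain background subtraction 76 biogenesis genes and 90 ribosomal protein genes fell, so the contrast between the lists depended on the processing. In zinc limitation the biogenesis genes had a median of 0.02, and the difference was lower in Zap1TC cells for 78 of 131.

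Of the 9 subunits of RNA polymerase I read, which transcribes ribosomal DNA, 5 fell and none rose, against 5.33% and 7.01% of all genes. RPA12 had log2 ratios of −1.19 and −1.12, RPA34 of −1.19 and −1.0, and RPC40, shared with RNA polymerase III, of −1.08 and −1.02. RPA49 and RPA135 both had a mean of −0.68, while the largest subunit, RPA190, read −0.02 and 0.03 (adjusted p = 0.928 from limma). Among subunits of RNA polymerase III alone, RPC82 fell, at −0.70 and −0.50. Not every subunit of the enzyme thus passed the rule.

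Other genes of cytosolic translation fell in smaller numbers, to be read beside the 5.33% of all genes that fell and the 7.01% that rose. Of 20 aminoacyl-tRNA synthetase genes 4 fell and 0 rose: MES1 for methionine (−1.01 and −0.84), KRS1 for lysine (−0.90 and −0.66), WRS1 for tryptophan (−0.75 and −0.59) and CDC60 for leucine (−0.76 and −0.55). Of 32 translation factor genes 5 fell. EFB1, the exchange factor of elongation factor 1, and HYP2, which encodes eIF5A, both had a mean of −0.81, and TIF3, GCN3 and TIF35, of the initiation machinery, had means of −0.69, −0.68 and −0.60. EFT2, for elongation factor 2, rose by 0.66, a call lost with the deposited values (0.45). Of 67 mitochondrial ribosomal protein genes, 1 fell (MRP13, −0.74 and −0.89) and 0 rose, although their median was −0.26. For these limma alone called 44 lower, against 29.3% of all genes. Of 33 proteasome genes 1 fell, with a median of −0.08. By the size rule neither of these 2 lists exceeded the share of all genes that fell.

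The files' own annotation gave a similar picture, beside 5.33% of all genes fallen and 7.01% risen. Of 204 genes annotated to protein biosynthesis 85 fell (41.7%) and 1 rose. Of 13 genes annotated to rRNA modification 6 fell, and of 18 annotated to transcription by RNA polymerase I 6 fell. The 2623 genes of unknown process held 224 of the rises (8.54% of them) and 68 of the falls (2.59%).

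**Figure D4:**
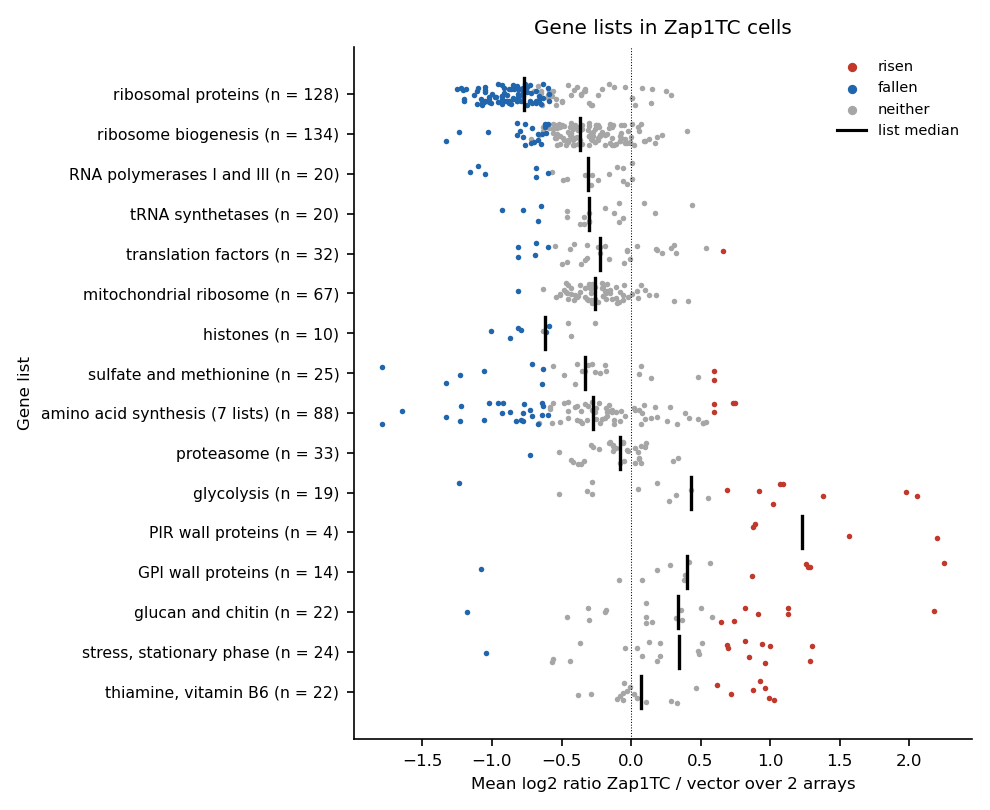
Mean log2 ratio of Zap1TC over vector (x axis) of each gene in 16 lists (y axis, number of genes read on both arrays), coloured by call, with a black line at each list's median. The ribosomal protein and histone lists are shifted to the left (medians −0.77 and −0.62), while the wall protein, glycolysis, stress and thiamine lists hold many risen genes.

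Histone genes lay below 0 on both arrays in 10 of 10 cases, and 6 fell (60.0%, against 5.33% of all genes), with a median of −0.62. Copies that encode the same histone may share signal, so the 10 genes are not independent cases. HHF2 and HHF1, the histone H4 genes, read −1.04 and −0.98 and −0.85 and −0.89. HHT2 and HHT1, for histone H3, had means of −0.79 and −0.61, HTZ1, for the variant H2A.Z, −0.81, and HTB2, for H2B, −0.59. HTA1 read −0.01 and −0.51 (adjusted p = 0.0572 from limma). HHT1 and HTB2 lay close to the size rule and lost their call under median centring, which left 4. In zinc limitation the histone list had a median of 0.24, and the difference was lower in Zap1TC cells for 10 of 10. Of 28 genes of DNA replication 1 fell, not above the share of all genes. It was RNR1, the large subunit of ribonucleotide reductase, at −0.86 and −0.58. Among 17 cyclins and cell cycle regulators CLB1, a B-type cyclin, fell (−0.80 and −0.62) and CLN3, the G1 cyclin that acts first, rose (1.05 and 0.92).

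Genes of sulfate assimilation and methionine synthesis fell in part of the pathway. Of 25 genes 7 fell and 2 rose, against 5.33% and 7.01% of all genes, with a median of −0.33. The first steps, from uptake to sulfite, held most of the falls: SUL2, a sulfate permease (−0.76 and −0.66), MET3, ATP sulfurylase (−1.06 and −1.06), MET14 and MET16. The sulfite reductase subunits had smaller values, with means of −0.19 for MET5 and 0.06 for MET10. MET2 fell furthest, MET28, a cofactor of the activator Met4, had a mean of −0.63, and CYS4, cystathionine beta-synthase, one of −0.64. MET13, a methylenetetrahydrofolate reductase, and CYS3, cystathionine gamma-lyase, both rose by 0.60, and both calls were lost with the deposited values. MET14, MET16 and MET3 were lower in zinc limitation as well (−1.0, −0.86 and −0.62), and lower still in Zap1TC cells, with log2 differences of −0.32, −0.37 and −0.44 (adjusted p = 0.013, 0.035 and 0.00225 from limma).

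**Figure D5:**
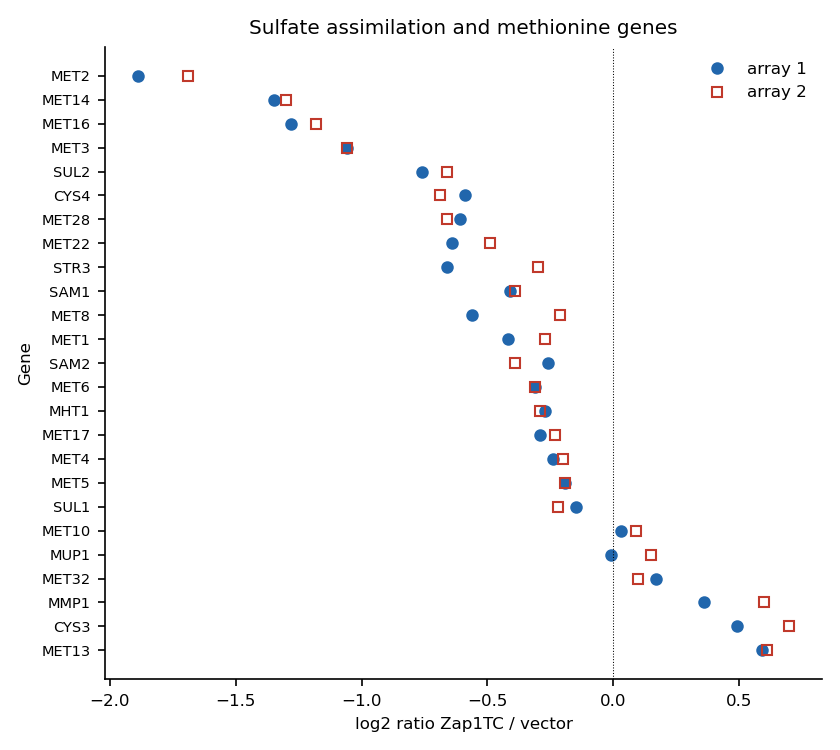
Log2 ratio of Zap1TC over vector (x axis) of the 25 genes of sulfate assimilation and methionine synthesis (y axis) on array 1 (filled circles) and array 2 (open squares). MET2, MET14, MET16 and MET3 lie at or below −1.06 on both arrays, and MET10 and MUP1 lie near 0.

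The other routes of amino acid synthesis gave a few falls each. Over 7 lists joined (sulfur and methionine among them) 23 of 88 genes fell (26.1%) and 4 rose, with a median of −0.27. Of all genes 5.33% fell and 7.01% rose. In the branched-chain route OAC1, BAT1 (mitochondrial aminotransferase, −0.93 on both arrays), LEU1 (isopropylmalate isomerase, −0.74 and −0.72) and ILV2 (acetolactate synthase, −0.53 and −0.68) fell. By limma alone ILV3 was lower (mean of −0.66), while BAT2, ILV6, LEU4 and ILV5 were higher (means of 0.54, 0.52, 0.28 and 0.26). LYS20 and LYS21, the homocitrate synthases that begin lysine synthesis, had means of −0.92 and −0.79, and their close sequences may share signal. ARG3 and ARG1 had means of −0.96 and −0.87, and the first step of histidine synthesis, HIS1, one of −0.77. In the aromatic route ARO2, ARO7 and TRP4 fell (−0.83, −0.78 and −0.78) and ARO1 rose (0.73). SER33, of serine synthesis, read −1.01 and −1.02, and SHM2, a serine hydroxymethyltransferase, rose by 0.75.

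Nucleotide and cofactor genes showed falls and rises side by side. FUR1, uracil phosphoribosyltransferase (−1.06 and −0.95), URA7, a CTP synthase (−0.84 and −0.50), and FCY1, cytosine deaminase (−0.64 and −0.53), fell. URA10, the minor orotate phosphoribosyltransferase, rose 5.4-fold (2.49 and 2.37), and URA8, the other CTP synthase, rose as well (0.59 and 0.93). In purine metabolism IMD4, GUA1 and HPT1, which act in making guanine nucleotides, fell (−0.81, −0.71 and −0.65), and ADE17, of the last steps of the de novo pathway, rose (0.99 and 1.20). URA10 and ADE17 are study targets, picked in part from these arrays. IMD2 and IMD3, which like IMD4 encode IMP dehydrogenase, were higher by limma but missed the size rule (means of 0.38 and 0.21). BNA1 and NMA1, of NAD synthesis, had means of −1.13 and −0.65. Of 22 genes of thiamine and vitamin B6 synthesis 7 rose (31.8%, against 7.01% of all genes) and 0 fell. Among them THI12, THI13, THI11 and THI5, near-identical copies that the spots cannot separate, had means of 1.03, 0.99, 0.88 and 0.72, and THI4, the thiazole synthase, read 0.92 and 1.0.

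Mating genes of the alpha type fell. MF(ALPHA)2 and MF(ALPHA)1 stood among the 30 largest falls, and STE3, the receptor for a-factor, read −1.03 and −1.02. SAG1, the alpha-agglutinin, was lower by limma but missed the size rule (−0.34 and −0.29). In zinc limitation the 4 genes moved differently: MF(ALPHA)2 and SAG1 were lower still (−3.28 and −1.81), STE3 read −0.91 (adjusted p = 0.326 for the difference) and MF(ALPHA)1 read 0.20 (adjusted p = 2.71e-05 for the difference, limma). Of the a-specific genes STE6 rose by 0.67 from a signal close to the background.

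Permeases of amino acids and peptides went both ways. ALP1, a basic amino acid transporter, read 1.96 and 1.75, PTR2, the peptide transporter, 1.54 and 1.47, GAP1, the general amino acid permease, 1.19 and 0.89, and HIP1, the histidine permease, 0.73 and 0.82. BAP3 (−0.87 and −0.58) and DIP5 (−0.54 and −0.73) fell. All of the 6 were above 0 in zinc limitation, where DIP5 reached 2.11 and GAP1 1.93. For BAP3 and DIP5, whose calls are lost without array 1 and array 2 respectively, the direction therefore differed between the experiments, and the differences passed limma's test (−1.55 and −2.75, adjusted p = 1.01e-05 and 1.51e-06).

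Among the rises, the genes of the zinc regulon led. Besides ZAP1 the highest were YOR387C (150-fold), VEL1 (109-fold), ZPS1 (78.1-fold), ZRT1 (41.1-fold) and ADH4 (13.7-fold), and all of these are in the target tables. The paper gives YOR387C and VEL1 the same element sequences at nearly the same promoter positions, and whether their spots share signal was not tested. VEL1, MNT2, an alpha mannosyltransferase (4.17-fold), ADH4 and ZRT1 are 4 consecutive genes near an end of chromosome VII, and the gene next to ZRT1, FZF1, which encodes a regulator of sulfite efflux, fell (−0.74 and −0.64). Below them the arrays gave a closely packed group between 4.06-fold and 5.48-fold. It held SPG1, a stationary-phase gene (2.69 and 2.22), ZRT3 (2.51 and 2.39), URA10, TIS11 (2.61 and 1.96) and its neighbour RKM5, a ribosomal protein methyltransferase (1.98 and 2.06). PET20, a mitochondrial protein needed for respiratory growth, read 2.30 and 2.08, SSA3, a stress-induced Hsp70 chaperone, 2.19 and 2.16, and ENO1, enolase, 2.0 and 2.13.

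Several cell wall genes rose, where 7.01% of all genes rose and 5.33% fell. Of those named, SED1, UTH1, PIR3, PST1 and SCW4 are study targets, picked in part from these arrays. SED1, the main wall glycoprotein of stationary cells, read 2.33 and 2.16, UTH1, of the SUN family, 2.13 and 2.22, and PIR3, a wall protein joined to glucan through glutamine, 2.25 and 2.15. FLO5, a flocculin, read 2.22 and 2.0, and YHR213W, a flocculin-like open reading frame near it, 2.38 and 2.27, so the signals of this repeat family may be shared. All 4 PIR genes listed rose, with HSP150 at 1.75 and 1.39, CIS3 at 0.87 and 0.90 and PIR1 at 1.0 and 0.76. PIR5, next to HSP150 and outside this list, also rose (mean of 0.91). The level of the 4 listed genes depended on the normalization of bright spots: with the deposited values 2 of 4 rose and PIR1 read 0.18, and with loess within print-tip blocks 1 rose and PIR1 read −0.14. Of 14 GPI-anchored wall proteins 5 rose (SED1, CCW12, TIR2, PST1 and TIR1) and CWP1 fell (−1.06 and −1.10). Of 22 genes of glucan and chitin 7 rose, among them SCW4 (1.14 and 1.13) and CRH1 (1.25 and 1.01), while UTR2, a chitin transglycosylase related to CRH1, fell (−1.32 and −1.03). The call of CCW12 was lost under both of these normalizations and that of CRH1 under the print-tip loess.

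Some enzymes of lower glycolysis rose. Of 19 genes of glycolysis and fermentation 8 rose and 1, ADH1, fell, with a median of 0.43. Over all genes 7.01% rose and 5.33% fell. ENO1, ENO2 and TDH1 are study targets, picked in part from these arrays. ENO1 and ENO2 (1.92 and 2.03), which share most of their sequence, PDC5, a pyruvate decarboxylase (1.28 and 1.49), and CDC19, pyruvate kinase (0.93 and 1.21), kept their calls under all 13 alternatives. TDH1, TDH2 and TDH3, for glyceraldehyde-3-phosphate dehydrogenase, had means of 1.09, 0.92 and 1.02, but with the deposited values they read 0.52, −0.04 and 0.19, and 4 of 19 genes rose. FBA1, aldolase, and TPI1, triosephosphate isomerase, read −0.52 and −0.32 on average and missed the size rule. No direction is given for the TDH genes as a group.

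Stress genes rose in part, where 7.01% of all genes rose and 5.33% fell. Of 24 general stress and stationary-phase genes 9 rose (37.5%) and 1 fell, among them PHM7 (1.37 and 1.23), FMP45 (1.32 and 1.25), GRE1 (0.86 and 1.06) and the activator MSN4 (0.73 and 0.65). YGP1, a secreted glycoprotein of starved cells, fell instead (−1.01 and −1.08). Of 26 heat shock genes 5 rose: SSA3, HSP26, HSP30, STI1 and APJ1. Of 32 autophagy genes 6 rose (18.8%) and 0 fell, led by ATG41 (1.90 and 1.80). ATG41, HSP26 and PHM7 are study targets, picked in part from these arrays, so their rises do not add independently to these counts. No gene was called among those of the ATP synthase (10 read), the vacuolar proton pump (12), copper (10), phosphate (13), ER folding (17) and fatty acid synthesis (10), where limma alone called 6, 6, 6, 4, 8 and 6. Over all 5780 genes limma alone called 29.3% higher and 29.3% lower.

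A minority of the falls were shared with severe zinc limitation. Of 304 fallen genes read on all 4 arrays, 25 fell by the same rule in zinc limitation, which is 8.22% of the Zap1TC falls and 25.8% of the 97 falls in zinc limitation. Those 97 are 1.94% of the genes read on all 4 arrays. The 25 included ADH1, ADH2 and ADH3, MET3, MET14 and MET16, LEU1 and BAT1, MF(ALPHA)2 and STE3, BNA1, UTR2 and FZF1. ADH3 fell further in Zap1TC cells (difference −0.59, adjusted p = 0.000609), while ADH1 and LEU1 fell further in zinc limitation (differences 0.61 and 1.0, adjusted p = 0.0019 and 2.21e-05 from limma). UTR2 had nearly the same ratio in both (−1.18 and −1.21). In the opposite sense, 7 of the 304 fallen genes rose in zinc limitation, and 3 of 318 risen genes read on all 4 arrays fell there. By the same rule 236 of all 4992 genes rose in zinc limitation, and 77 rose in both experiments. Opposite calls were therefore few beside these shares.

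Some of the genes named above lay close to the size rule on an array. Without array 1 the falls of BAP3, RNR1, RPA135, URA7, CDC60, HPT1, HHT1, TIF35, RPC82 and FCY1 were no longer called, their array 2 values being between −0.58 and −0.50, nor were the rises of STE6 (0.51) and APJ1 (0.55). Without array 2 the falls of DIP5 (−0.54), ILV2 (−0.53) and HTB2 (−0.58) and the rise of CYS3 (0.49) were no longer called. With loess within print-tip blocks the falls of RPS15, GUA1, SUL2, GCY1, GCN3, URA7, CDC60, ILV2 and FCY1 and the rises of HSP150, CCW12, CRH1, TDH3, CIS3, PIR1 and APJ1 missed the rule. With the deposited values the rises of TDH1, TDH2, TDH3, CCW12, CIS3, PIR1, SHM2, STE6, EFT2, APJ1, MET13 and CYS3 and the fall of RPC82 missed it. PIR1 read −0.14 with print-tip loess and TDH2 −0.04 with the deposited values, and the other genes in this paragraph kept their direction under these settings.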

How the data were processed

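Spots with a named open reading frame were taken from the scanner intensities as deposited by the authors, a mean and a local background per channel. The authors' deposited log2 ratios, normalized by LOWESS within each slide without background subtraction, were an alternative. Background was removed by normexp (offset of 50), a loess curve (span of 0.3) was fitted per array with limma 3.58.1 in R 4.3.3, and log2 ratios of spots for the same gene were averaged. Arrays 1 and 2 gave 11303 and 11040 spots of 5934 and 5881 genes, and the number of arrays limits the precision. limma was fitted over the 4 arrays with 1 coefficient per experiment, which pools their spread, two-sided with Benjamini-Hochberg adjustment. The difference between the experiments was a contrast in that fit. P-values rest on the spread between replicate arrays pooled over both experiments, with 2 culture pairs in each. RefSeq (assembly R64) named 5318 of the 5780 genes; the others keep the array's names, and its gene order served to find neighbours and chromosome ends.

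Genes named are the 20 largest rises, the 30 largest falls, ZAP1, study targets as examples, and members of 63 lists (every member of lists with up to 12 genes read; otherwise those risen, fallen or largest in size), without naming all of these. These members and lists were chosen, and the lists last corrected, with results of these data known. Genes just outside the size rule, the genes of zinc limitation beside them and some examples were chosen after their values were seen. Alternatives were no background correction, plain subtraction, print-tip loess, median centring, dim genes left out, the deposited values, each array left out, a block by replicate number, the 2 arrays alone, a robust prior with an intensity trend and a mean of at least 2-fold. Promoter motifs and sequences were not analysed here.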

Additional observations from a re-analysis of the deposited data

Results flagged for a closer look

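Called changes of opposite direction in the Zap1TC and zinc limitation experiments, with a difference past limma's test, were found for 10 genes of the 4992 read on all 4 arrays. By the same rule 236 of the 4992 rose and 97 fell in zinc limitation. GLN1, glutamine synthetase, fell by 1.47 on the log2 scale here and rose by 0.92 there, a difference of −2.40. FCY2, the purine and cytosine permease, read −1.15 and 0.95 (difference −2.10), and YGP1 −1.04 and 2.06 (difference −3.10). DIP5, the dicarboxylic amino acid permease, read −0.64 and 2.11 (difference −2.75), BAP3 −0.73 and 0.82 (difference −1.55), CLB1 −0.71 and 0.95 (difference −1.66) and YHR033W, of unknown function, −0.77 and 0.80 (difference −1.56). In the other direction NRD1, a transcription termination factor, read 0.59 and −1.06 (difference 1.65), CYS3 0.60 and −0.79 (difference 1.38) and TPO4, a polyamine exporter, 0.69 and −1.03 (difference 1.72). The adjusted p of these differences from limma was highest for TPO4, at 3.7e-05. All 10 were well above background in both channels on the 2 zinc limitation arrays. The calls of NRD1 and CYS3 lay close to the size rule, and each was lost under 4 of 13 alternatives.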

How the results depend on the processing

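All 50 of the largest rises and falls kept their call under the 13 refitted alternatives, as did 293 of the 405 risen and 205 of the 308 fallen genes. Several alternatives leave the Zap1TC ratios unchanged, so direction and size were fixed there. These are a zinc limitation array left out, dim genes left out, the replicate block, the 2 arrays alone, and the robust prior with an intensity trend. Plain background subtraction gave 792 risen and 785 fallen genes and 76 fallen ribosome biogenesis genes, and a mean of at least 2-fold gave 139 risen and 68 fallen. Leaving out each of the 4 arrays in turn gave 405 to 473 risen genes, 305 to 378 fallen, and 13 to 40 fallen ribosome biogenesis genes. The cause was not tested. PIR1 read −0.14 with loess within print-tip blocks and TDH2 −0.04 with the deposited values. The GPM1 call was lost with print-tip loess (0.14) and that of GSC2 with plain subtraction (adjusted p = 0.113 from limma). Of 2249 gene values under alternatives, 2245 kept direction and side of the test, and of 871 list medians 788 moved by less than the spread between arrays.

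The replicate numbers do not pair the samples of the experiments: deviations of same-numbered arrays correlated at −0.0738 over 4992 genes. With the replicate number as a block 405 genes rose and 308 fell, limma alone called 1701 higher and 1701 lower, the difference passed as lower for 1341 and higher for 1093 genes, and ZAP1 read 6.65. Of the 5780 genes 61 had a Cy5 signal not well above background on either Zap1TC array, which limits how far a fall can be read in dim genes. 1 of these, YJL195C, was called, and fell at least 1.51-fold.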

Other observations

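Genes near the ends of chromosomes rose more often than other genes. Among the outermost 10 protein-coding genes of each chromosome end, 63 of 265 genes read rose (23.8%) and 3 fell (1.13%), against 291 of 5039 (5.77%) and 293 (5.81%) elsewhere, and their median log2 ratio was 0.26. Many genes there belong to repeated families whose spots share signal, COS and flocculin genes among them, so these counts are not of independent genes. Of the 9 COS genes read, 2 rose, COS1 (0.81 and 0.76) and COS6 (0.68 and 0.79), and the list's median was 0.55. COS1 and COS6 are study targets, picked in part from these arrays. The 462 open reading frames without a RefSeq name were 7.99% of the genes tested. They held 50 of the rises (12.3%) and 12 of the falls (3.90%).

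Among transport genes of glucose, HXT5, a transporter induced in slow growth, rose (0.84 and 0.96), as did MTH1, a repressor of HXT genes (0.85 and 0.87). In central carbon metabolism ACO1, aconitase, and PYC2, pyruvate carboxylase, rose (0.74 and 0.63, 1.03 and 0.94). MDH1, mitochondrial malate dehydrogenase, fell (−0.53 and −0.64), close to the size rule. QCR6, QCR8 and CYC7, of the respiratory chain, fell (−0.70, −0.66 and −0.62 on average).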
